A study of Saccharomyces cerevisiae with 11 samples.

Results

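The 35 genes described here build sugar chains on yeast proteins, from the supply of activated mannose to the last mannoses added in the Golgi. They were chosen by name: a gene was a member if its symbol stood in the platform's gene table, and the probe set with the highest mean signal over all arrays stood for it. All 35 were found among the 5656 genes with a named probe set. They fall into 5 steps of the pathway, with 6 O-mannosyl transferases, 10 genes of the lipid-linked oligosaccharide, 7 subunits of the oligosaccharyl transferase complex, 4 genes of GDP-mannose and dolichol mannose supply, and 8 genes of the Golgi mannosyl steps.

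N-glycosylation starts on a lipid carrier, dolichol, in the membrane of the endoplasmic reticulum (ER). The ALG enzymes add N-acetylglucosamine, mannose and glucose to that lipid in a fixed order, and the oligosaccharyl transferase complex then moves the finished chain to asparagines of new proteins. O-mannosylation starts in the same membrane, where the PMT enzymes place a mannose from dolichol phosphate mannose on serines and threonines. The Golgi enzymes then lengthen both kinds of chain, and in yeast the resulting mannoproteins form the outer layer of the cell wall.

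The study used Saccharomyces cerevisiae RNA on 11 Affymetrix YG-S98 arrays, each giving 1 signal per probe set on a linear scale. The fks1 strain, numbered 5251 in the labels, was measured once after 2 h of 15 mM glucosamine and once untreated; FKS1 encodes the main catalytic subunit of cell wall glucan synthase. The wild type, a haploid laboratory strain labelled BY4741, was measured on 3 arrays after growth in 15 mM glucosamine throughout (continuous below), 3 after 2 h of it and 3 untreated. All cultures grew in the rich glucose medium YPD; the amino sugar glucosamine can be phosphorylated by cells and fed into the pathway of UDP-N-acetylglucosamine, the donor for chitin and for the sugar that opens the lipid-linked chain. The labels do not say what kind of mutation fks1 is, nor whether the numbered replicates were grown separately, so the spread between arrays on which the p-values rest may be technical.

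The arrays were on a common scale, with 2% trimmed means of 499.77 to 499.82 and medians of 122.7 to 150.0. FKS1 read 6.6 and 24.4 on the fks1 arrays, both under 25.5, a background level taken as the 95th percentile of 19 control probe sets, against at least 6591 on every wild-type array. STE2, the receptor of mating type a cells, read 841.8 to 1732 over the 11 arrays, against 30.9 to 93.8 for STE3 of mating type alpha. Within the wild type STE2 read 1638 to 1732 on the continuous arrays, 1018 to 1491 on the 2 h arrays and 917.4 to 1366 on the untreated ones. MET17, a marker gene that BY4741 is known to lack, read 7.7 and 7.6 on the fks1 arrays but 108.5 to 1248 on the wild-type arrays. Its wild-type readings were 108.5 to 223.0 on the continuous arrays, 265.3 to 985.3 on the 2 h arrays and 684.1 to 1248 on the untreated ones. The MET17 readings go against the label BY4741 of the wild-type arrays, so which strain they hold is in doubt. Of the other marker genes that BY4741 is known to lack, URA3 read 1.3 to 6.7 over the 11 arrays, which goes with the label. LEU2 read 44.0 to 99.4 and HIS3 479.5 to 886.1 over the 11 arrays, both above the background level of 25.5. The strains differed at MET17 as well as at FKS1, and for every fks1 result below the fks1 mutation and other differences between the strains cannot be told apart. The 3'/5' signal ratio of SPT15, an array control that follows RNA and labelling quality, was 2.88 and 2.99 on the fks1 arrays, 2.46 to 2.89 on the continuous arrays, 3.22 to 3.86 on the 2 h arrays and 3.38 to 3.53 on the untreated wild-type arrays. The ratio of ACT1 ran from 1.24 to 1.54 over all arrays, with overlapping groups.

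All 35 genes read above the background percentile on every array, with signals between 72.1 and 8108. Their mean signals ran from 98.2 to 7417, and signals of different probe sets are not compared here because probes differ in how well they bind. The plot of all 35 genes by array shows small differences for most of them: a paler or deeper blue across the continuous arrays, and a deep red for KTR2 and OCH1 on the fks1 arrays.

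**Figure D1:**
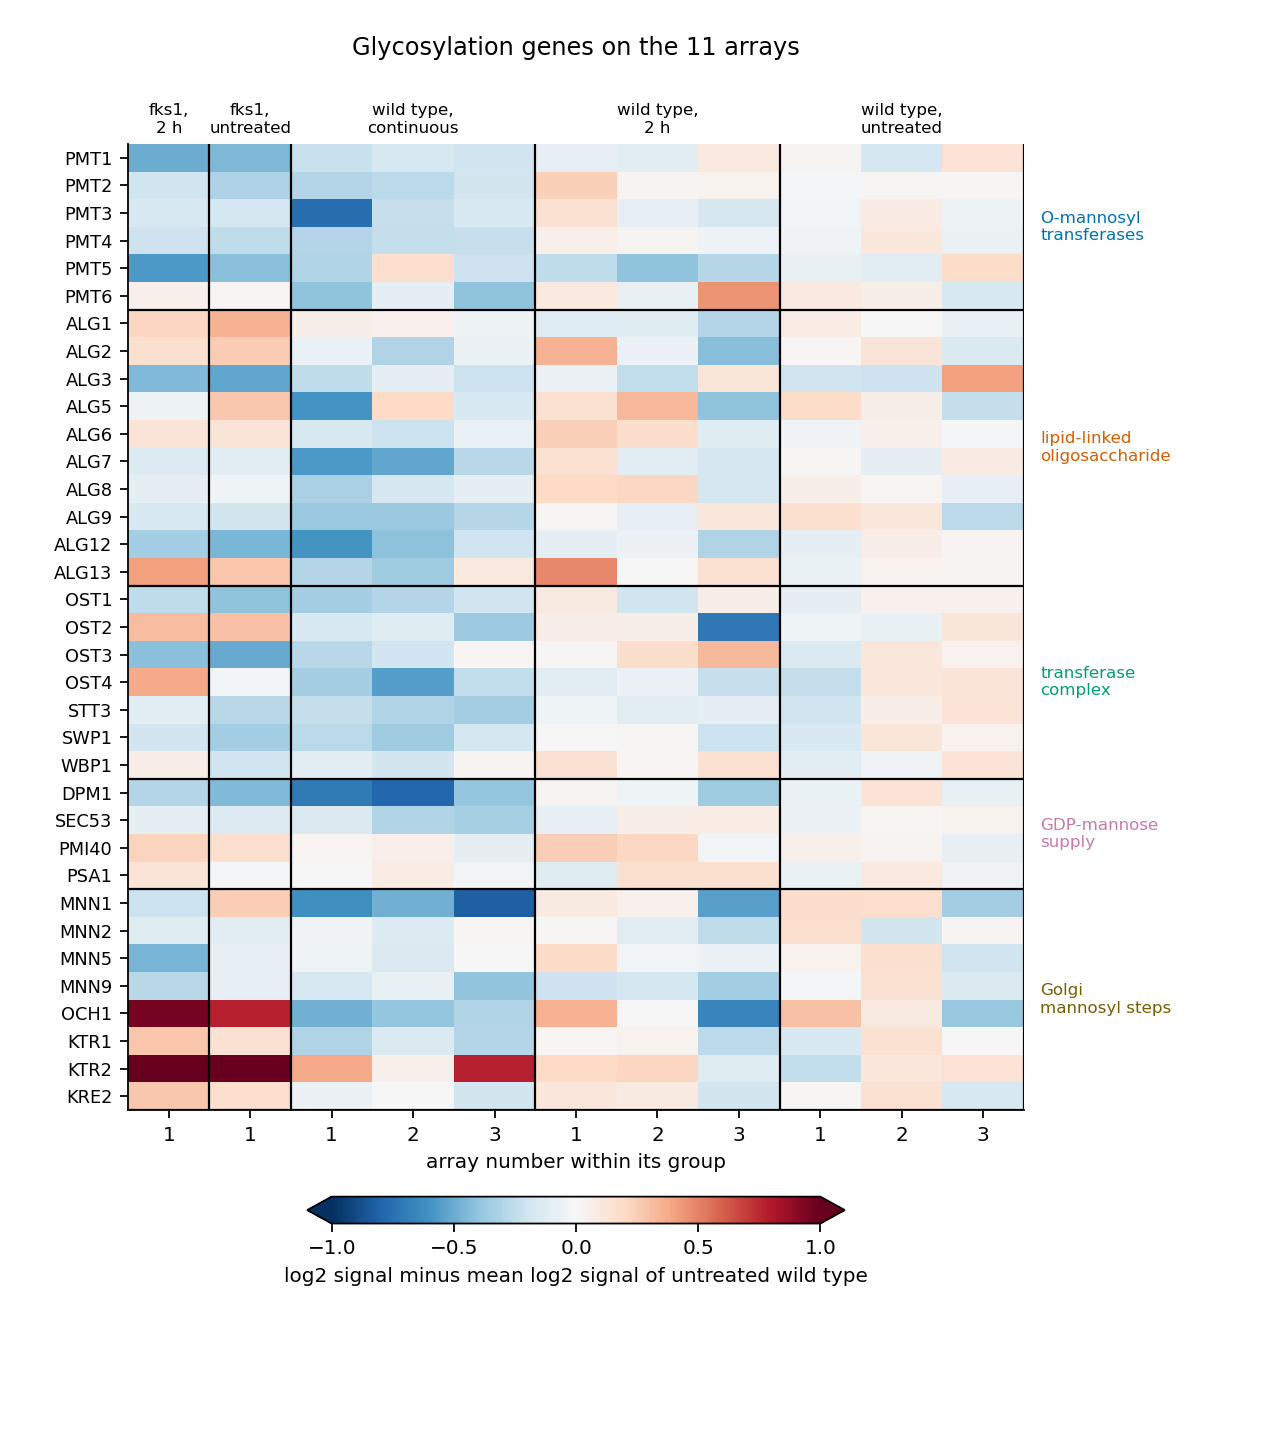
Log2 signal of each of the 35 genes (rows, by step) on each of the 11 arrays (columns, by group), minus the gene's mean log2 signal on the untreated wild-type arrays. Colours are capped at 1 on the log2 scale in both directions, and KTR2 on the fks1 arrays lies beyond the cap at 2.53 for the untreated culture.

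The first question was whether 2 h of glucosamine altered glycosylation genes in wild type. None of the 35 passed the test (limma, Benjamini-Hochberg adjusted over 8616 probe sets, adjusted p under 0.05, two-sided), and 0.0348% of all probe sets did. None had an unadjusted p under 0.05 in limma, where 3.59% of all probe sets were lower and 2.47% higher at that level. Negative log2 differences were found for 19 genes (53.9% of all probe sets) and positive ones for 16, with a median of -0.03, against -0.02 over all probe sets. Same-numbered untreated and 2 h arrays deviated together; with the replicate number as a block 17 probe sets passed in place of 3, and still 0 of the 35 (smallest adjusted p = 0.395). The 2 h arrays lay wholly above the untreated arrays for 1 gene and wholly below them for 3, where 4.77% and 6.4% of all probe sets showed that. These counts are near the shares over all probe sets, and the 4 genes are listed below as a description only.

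PMT5, a protein O-mannosyltransferase of the ER, had signals of 265.0, 238.8 and 258.4 at 2 h, against 299.4, 293.6 and 357.6 in untreated cells. Its 2 h arrays all lay below the untreated ones, with a log2 difference of -0.31 (SE 0.17, adjusted p = 0.859). MNN9, a subunit of the mannan polymerases of the Golgi, read 432.0, 442.4 and 392.9 at 2 h, against 494.9, 554.9 and 452.5 in untreated cells (log2 -0.24, limma adjusted p = 0.890). The same order held for ALG1, which adds the opening mannose to the lipid-linked chain, at 261.1, 262.5 and 234.2 after 2 h, against 301.2, 287.0 and 271.2 in untreated cells (log2 -0.18, limma adjusted p = 0.922). PMT2, the partner of PMT1 in the main O-mannosyltransferase of the ER, was the 1 gene with every 2 h array above every untreated one. It read 6198, 5345 and 5384 at 2 h, against 5181, 5278 and 5278 in untreated cells (log2 0.10, limma adjusted p = 0.940).

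Continuous growth in glucosamine gave lower readings for most of the 35 genes, by amounts too small to pass for any single gene. None passed (1.44% of all probe sets, or 124, did), while 12 had an unadjusted p under 0.05, all 12 lower, where 6.69% of all probe sets were lower and 7.16% higher at that level. The count of 124 was itself unstable: without the untreated array numbered 1, 2 or 3 it was 13, 2 and 6, without the continuous array numbered 1 or 2 it was 12 and 26, and without the 2 h array numbered 3 it was 186. The log2 difference was negative for 32 of the 35 genes, against 47.6% of all probe sets, and the median was -0.21, against 0.02 over all probe sets. All 3 continuous arrays lay below all 3 untreated arrays for 16 genes, where 9.61% of all probe sets did so, and 0 genes had the opposite order, where 10.6% did. The mean of the 35 genes on the continuous arrays lay -0.27, -0.21 and -0.17 on the log2 scale from the untreated mean, against -0.02, 0.05 and -0.02 for the untreated arrays themselves, so the groups did not overlap. The same mean over all probe sets was -0.05, 0.01 and 0.11 on the continuous arrays. The SPT15 ratio was also lower on all continuous arrays than on all untreated ones, as given above, and its part in these differences was not tested. MET17 was likewise lower and STE2 higher on all continuous arrays than on all untreated ones. Whether these groups differed in more than glucosamine was not tested.

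**Figure D2:**
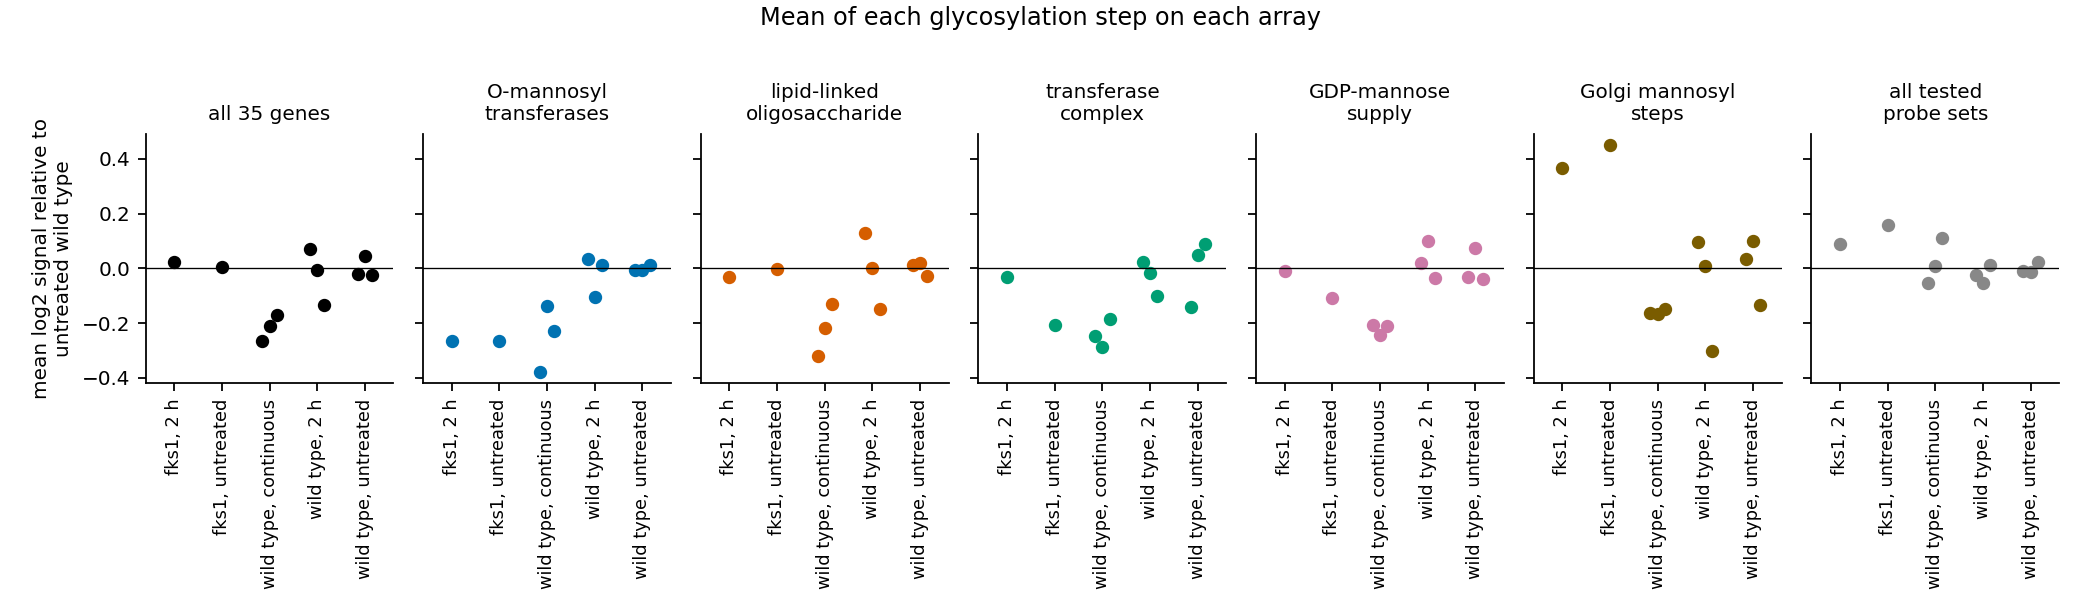
Mean log2 signal, relative to the untreated wild-type mean, of all 35 genes, of each step and of all 8616 tested probe sets (panels, left to right). Each point is 1 array, with groups along the horizontal axis; the continuous arrays lie at -0.27, -0.21 and -0.17 for all 35 genes, below every 2 h and untreated wild-type array.

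Among the 6 O-mannosyl transferases all log2 differences in continuous glucosamine were negative, from -0.38 to -0.11 with a median of -0.25, and 2 had an unadjusted p under 0.05. PMT2 read 4280, 4342 and 4629 in continuous glucosamine, against 5181, 5278 and 5278 in untreated cells (log2 -0.25, SE 0.10, adjusted p = 0.265). PMT4, which modifies membrane-bound proteins, read 2892, 3007 and 3021 in continuous glucosamine, against 3455, 3812 and 3387 in untreated cells (log2 -0.25, SE 0.10, adjusted p = 0.247). For both genes the 2 groups of arrays were well apart. PMT3, a relative of PMT2, read 287.6, 411.9 and 434.5 in continuous glucosamine, against 474.5, 511.2 and 467.2 in untreated cells. Its groups did not overlap either, but 1 continuous array lay far below the others, and the log2 difference of -0.38 had an SE of 0.18 (adjusted p = 0.391). PMT1, PMT5 and PMT6 overlapped between the groups; PMT1 read 1769, 1848 and 1804 in continuous glucosamine, against 2112, 1830 and 2287 in untreated cells.

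In the lipid-linked oligosaccharide step 9 of 10 genes had negative differences, with a median of -0.19, and 5 had no overlap between the groups. ALG7, the N-acetylglucosamine phosphate transferase that opens the chain and the target of tunicamycin, read 557.1, 581.1 and 687.6 in continuous glucosamine, against 839.0, 780.5 and 878.1 in untreated cells. Every continuous array was below every untreated one, and the log2 difference was -0.46 (SE 0.14, adjusted p = 0.150). ALG12, which adds a late mannose on the ER's inner side, read 432.6, 493.2 and 571.5 in continuous glucosamine, against 613.7, 686.9 and 666.6 in untreated cells (log2 -0.40, SE 0.15, adjusted p = 0.227). ALG9, another mannosyltransferase of the inner side, read 1574, 1577 and 1668 in continuous glucosamine, against 2277, 2200 and 1689 in untreated cells (log2 -0.34, SE 0.13). The continuous arrays of ALG9 were close together, and the untreated array numbered 3 stood close above them. ALG6 and ALG8, the glucosyltransferases that begin capping the chain with glucose, also had separate groups: ALG6 read 728.7, 700.9 and 777.2 in continuous glucosamine, against 792.8, 844.0 and 803.4 in untreated cells. ALG8 read 1141, 1272 and 1332 in continuous glucosamine, against 1491, 1451 and 1348 in untreated cells. ALG1 was the exception in sign, at 297.8, 295.1 and 275.8 in continuous glucosamine, against 301.2, 287.0 and 271.2 in untreated cells, with a log2 difference of 0.02.

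All 7 subunits of the oligosaccharyl transferase complex had negative differences, from -0.38 to -0.09 with a median of -0.27. OST1, OST2, OST4, STT3 and SWP1 had no overlap between continuous and untreated arrays, and 4 subunits had an unadjusted p under 0.05. STT3, the catalytic subunit, read 1757, 1683 and 1629 in continuous glucosamine, against 1806, 2169 and 2286 in untreated cells (log2 -0.30, SE 0.12, adjusted p = 0.267). The small subunit OST4 read 2360, 2037 and 2521 in continuous glucosamine, against 2531, 3238 and 3260 in untreated cells. In STT3 and OST4 the untreated array numbered 1 lay close to the continuous arrays and the other two well above them (OST4 log2 -0.38, SE 0.13, adjusted p = 0.219). OST1 read 3360, 3475 and 3715 in continuous glucosamine, against 4007, 4377 and 4392 in untreated cells (log2 -0.28, SE 0.11, adjusted p = 0.279). OST3, the subunit with a thioredoxin-like fold, overlapped between the groups at 2031, 2155 and 2492 in continuous glucosamine, against 2221, 2664 and 2520 in untreated cells.

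GDP-mannose supply was split between genes. DPM1, the synthase of dolichol phosphate mannose, which feeds both the PMT enzymes and the ALG enzymes of the inner side, read 1788, 1685 and 2231 in continuous glucosamine, against 2780, 3209 and 2766 in untreated cells (means of 1902 ± 290 and 2918 ± 252, SD, n = 3 each). All continuous arrays were below all untreated ones by a clear gap, 1.54 times lower in the mean of logs (log2 -0.63, SE 0.15), and its adjusted p of 0.0716 was the smallest of the 35. DPM1 passed when the continuous array numbered 3 was left out (log2 -0.75, adjusted p = 0.0497) and when the 2 h array numbered 3 was left out (log2 -0.63, adjusted p = 0.0494), and over all alternatives its adjusted p ran from 0.0494 to 0.235. SEC53, the phosphomannomutase, read 6315, 5653 and 5546 in continuous glucosamine, against 6720, 7087 and 7148 in untreated cells, again with no overlap (log2 -0.26, SE 0.10, adjusted p = 0.235). PSA1, which makes GDP-mannose from mannose phosphate, had overlapping groups at 7234, 7633 and 7101 in continuous glucosamine, against 6929, 7752 and 7056 in untreated cells (log2 0.02). PMI40, the isomerase that forms mannose phosphate, also overlapped, at 3010, 3070 and 2766 in continuous glucosamine, against 3076, 3027 and 2795 in untreated cells.

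The Golgi genes had a median of -0.15 and 7 of 8 negative differences, but MNN1 alone had separate groups. MNN1, the transferase of terminal mannoses on N- and O-linked chains, read 493.8, 543.3 and 428.6 in continuous glucosamine, against 852.9, 851.9 and 595.6 in untreated cells (log2 -0.64, SE 0.21, adjusted p = 0.183). Its difference was the largest of the 35 in size, and the array numbered 3 was the lowest of its group in all 3 wild-type groups, at 428.6 continuous, 519.5 after 2 h and 595.6 untreated. OCH1, which starts the outer chain of N-glycans, read 292.7, 311.8 and 330.6 in continuous glucosamine, against 499.5, 433.4 and 313.0 in untreated cells, so that the untreated array numbered 3 lay within the continuous range. KTR2, a mannosyltransferase of the KRE2 family, had the 1 positive difference among the Golgi genes, at 159.4, 126.7 and 209.9 in continuous glucosamine, against 103.3, 131.8 and 135.5 in untreated cells with overlap (log2 0.40). KRE2, which adds a mannose to O-linked chains, read 1680, 1739 and 1542 in continuous glucosamine, against 1757, 1938 and 1568 in untreated cells.

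ALG2, ALG5, ALG13, WBP1, MNN2, MNN5 and KTR1 overlapped between continuous and untreated arrays. ALG2, which extends the chain with mannose, read 410.7, 349.1 and 412.1 in continuous glucosamine, against 433.8, 471.0 and 388.9 in untreated cells. ALG5, which makes the dolichol phosphate glucose used by ALG6 and ALG8, read 419.0, 727.6 and 570.9 in continuous glucosamine, a wide spread, against 720.2, 660.5 and 537.5 in untreated cells. ALG13, a subunit of the transferase for the next N-acetylglucosamine after ALG7, read 75.1, 72.1 and 98.9 in continuous glucosamine, against 88.2, 94.5 and 94.1 in untreated cells, where 1 continuous array lay above all untreated ones. WBP1, a transferase subunit, read 3794, 3610 and 4182 in continuous glucosamine, against 3813, 4003 and 4493 in untreated cells. MNN2 and MNN5, which start and extend the mannose branches of the outer chain, differed little: MNN2 read 826.7, 770.7 and 857.1 in continuous glucosamine, against 943.5, 745.3 and 861.3 in untreated cells. MNN5 read 237.5, 220.9 and 244.9 in continuous glucosamine, against 250.6, 273.0 and 212.7 in untreated cells. KTR1, of the KRE2 family, read 1275, 1426 and 1286 in continuous glucosamine, against 1419, 1749 and 1569 in untreated cells, with the groups almost apart.

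**Figure D3:**
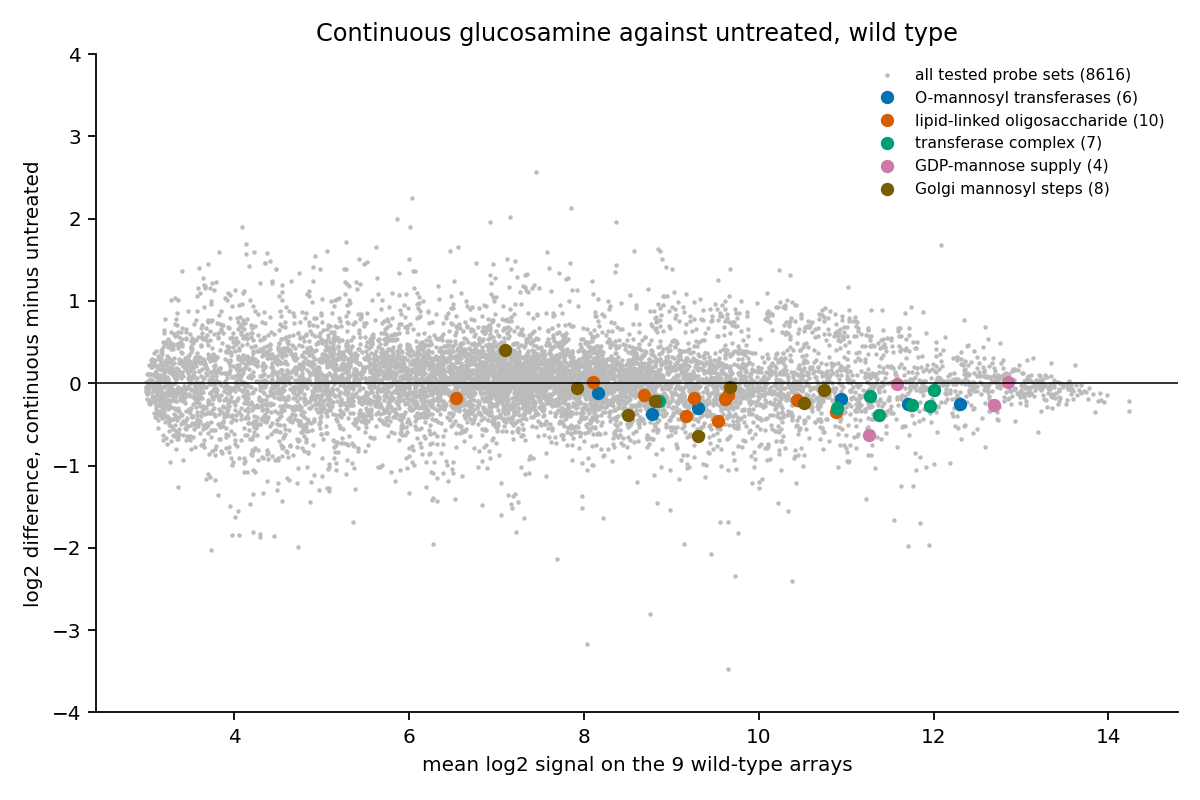
Log2 difference, continuous minus untreated wild type (vertical axis), against mean log2 signal on the 9 wild-type arrays (horizontal axis), with grey points for all 8616 tested probe sets and coloured points for the 35 genes by step. Of the coloured points 32 lie below 0, within the spread of the grey ones.

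Differences varied with signal over all probe sets, so the genes were also set beside probe sets of like signal. Of the 35, 17 had a mean signal of 1000 or more; their median difference in continuous glucosamine was -0.25 with 16 negative, against a median of -0.03 and 55.8% negative over the 1369 probe sets of that range. For the 13 genes between 300 and 1000 the median was -0.21 with all 13 negative, against 0.00 and 49.9% over 1668 probe sets. The 5 dimmer genes had a median of -0.06 with 3 negative, against 0.04 over 5579 probe sets.

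Continuous glucosamine was also compared with 2 h of it. This comparison shares the continuous arrays with the one above and is no separate support. None of the 35 passed (0.058% of all probe sets did), 10 had an unadjusted p under 0.05 and all 10 were lower, where 5.68% of all probe sets were lower and 8.33% higher at that level. The difference was negative for 30 genes, against 44.3% of all probe sets, with a median of -0.21 against 0.05. There was no overlap for 10 genes that were lower in continuous glucosamine (7.31% of all probe sets) and for 1, ALG1, that was higher (11.6%). DPM1 had a log2 difference of -0.50 (SE 0.15, adjusted p = 0.227), from 1788, 1685 and 2231 in continuous glucosamine against 2975, 2832 and 2279 after 2 h, where the lowest 2 h array was barely above the highest continuous one. PMT2 at -0.35 (SE 0.10, adjusted p = 0.212) and SEC53 at -0.28 (SE 0.10) were clearly apart, and ALG7 had -0.41 and ALG9 -0.36. PMT6, an O-mannosyltransferase that is less studied than its relatives, read 497.0, 613.9 and 496.5 in continuous glucosamine, against 701.9, 623.2 and 894.5 after 2 h (log2 -0.46, SE 0.17). Its separation rested on a narrow gap between 613.9 and 623.2.

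**Figure D4:**
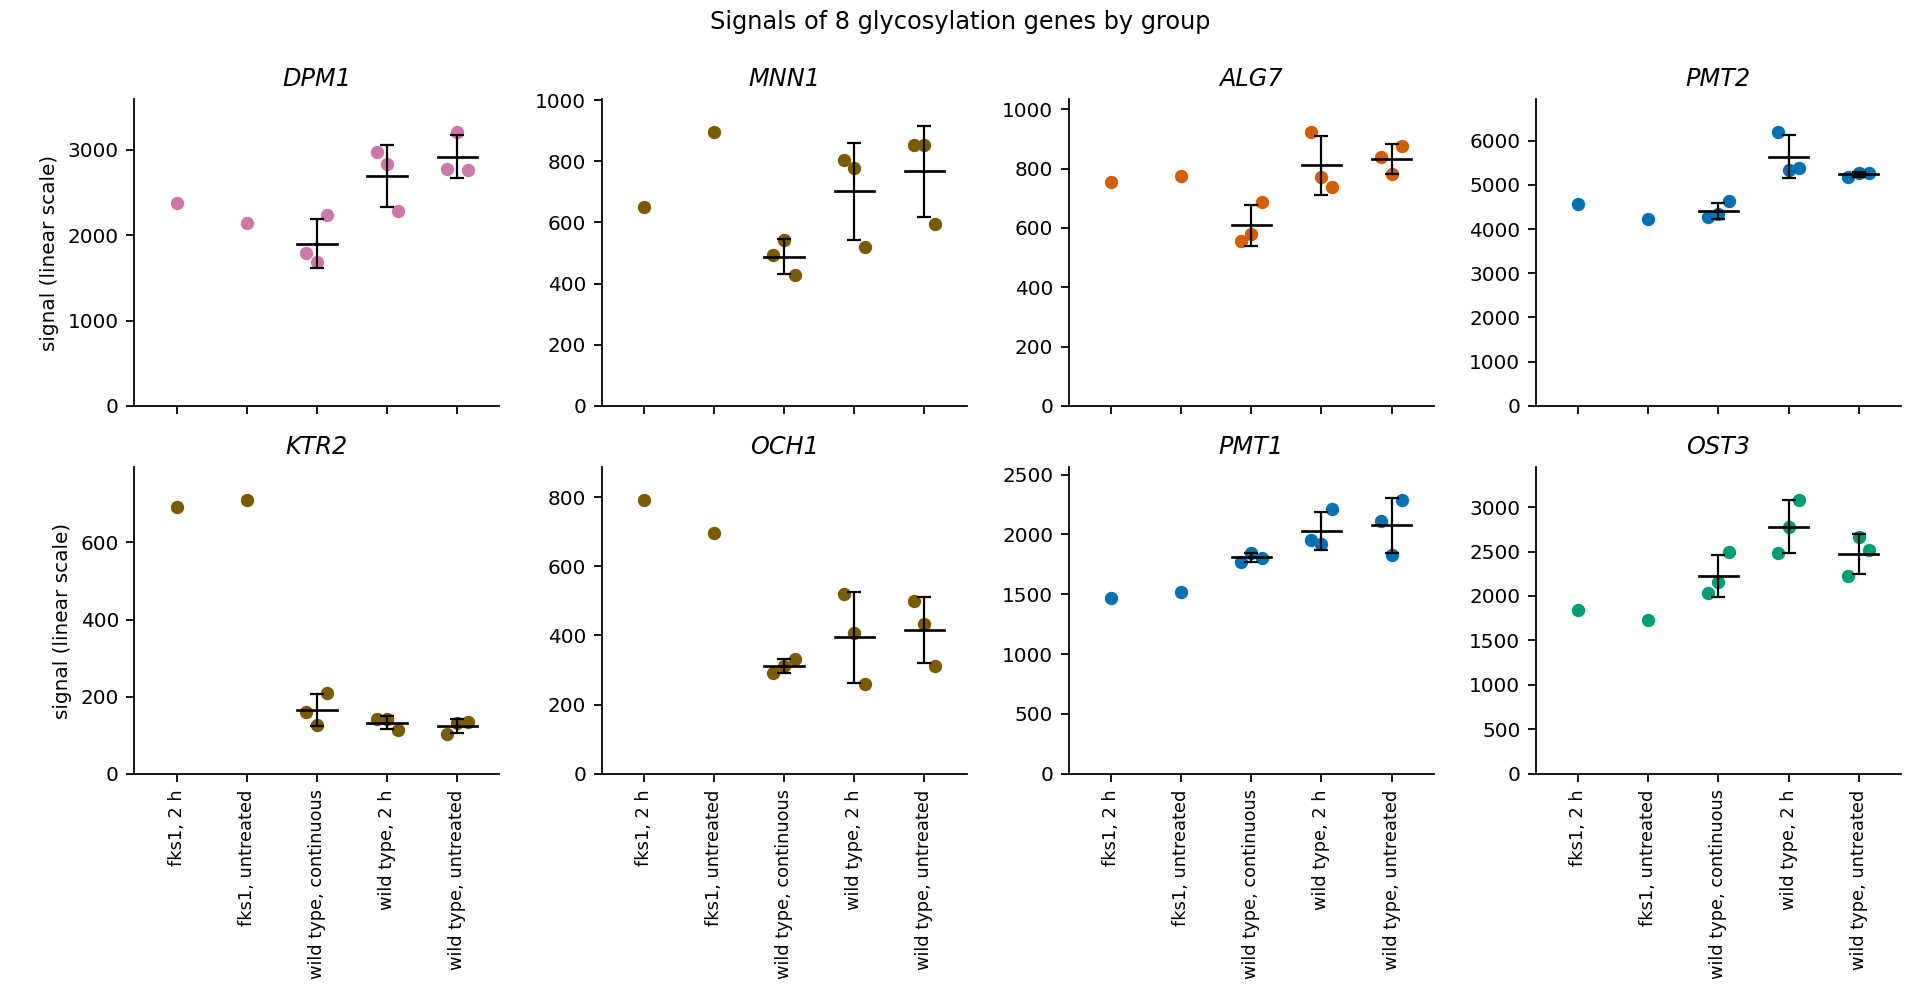
Signals of 8 of the genes on a linear scale from 0, by group, with 1 point per array and, for the wild-type groups, the mean with bars of 1 SD (n = 3). In continuous glucosamine DPM1, MNN1, ALG7 and PMT2 lie below the untreated arrays; on the fks1 arrays KTR2 (692.3 and 710.1) and OCH1 (791.8 and 697.1) lie above, and PMT1 and OST3 below, all 9 wild-type arrays.

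The fks1 strain was compared with wild type to ask which glycosylation genes differ when a main wall enzyme is mutated; with 1 fks1 array per condition these differences have no replicate check, and the p-values assume that an fks1 array varies like a wild-type one. KTR2 was the 1 gene of the 35 that passed in untreated cells, where 0.592% of all probe sets, or 51, did. Without the untreated wild-type array numbered 1, 2 or 3 that count was 22, 30 and 23, without the 2 h array numbered 2 it was 33, without the continuous array numbered 1 it was 32, and with no filter on low values it was 159; KTR2 passed in each. It read 710.1 on the untreated fks1 array, against 103.3, 131.8 and 135.5 on the untreated wild-type arrays, or 5.79-fold higher (log2 2.53, SE 0.31, limma adjusted p = 0.00806). KTR2 also stood at least 2-fold above each untreated wild-type array, which 2.59% of all probe sets did, and 0 of the 35 stood as far below each, where 0.499% did. After 2 h of glucosamine it read 692.3 in fks1, against 141.1, 142.5 and 112.6 in wild type, and passed again (5.27-fold, log2 2.40, SE 0.31, adjusted p = 0.0120, with 0.429% of all probe sets, or 37, past the test). That count was 18 without the 2 h wild-type array numbered 2 or 3, 21 without the untreated array numbered 1 and 22 without the continuous array numbered 1, and KTR2 passed in each. Both calls held under each of the 19 alternatives tried, with log2 differences of 2.33 to 2.61 untreated and adjusted p-values of 0.00442 to 0.0275 there, and of 0.00709 to 0.0368 after 2 h.

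OCH1 had the next largest difference and did not pass. It read 697.1 on the untreated fks1 array, against 499.5, 433.4 and 313.0 on the untreated wild-type arrays (log2 0.77, SE 0.36, adjusted p = 0.427). After 2 h it read 791.8 in fks1, against 518.7, 407.0 and 258.2 in wild type (log2 1.06, SE 0.36, adjusted p = 0.274). The fks1 arrays were above all wild-type arrays, but the wild-type arrays of OCH1 were widely spread. Among the other Golgi genes of the KRE2 family, KRE2 read 1968 in untreated fks1, against 1757, 1938 and 1568 in wild type, and KTR1 read 1744, which lay within the wild-type range of 1419 to 1749. After 2 h KTR1 read 1911 in fks1, against 1592, 1611 and 1313 in wild type, above all of them (log2 0.35, SE 0.18, adjusted p = 0.488). MNN1 read 895.8 untreated and 651.3 after 2 h in fks1, the first just above all untreated wild-type arrays and the second within the 2 h range of 519.5 to 805.4.

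Where the untreated fks1 array lay is given by step as a description, since it rests on 1 array and differences between steps were not tested. The untreated fks1 array was below all 3 untreated wild-type arrays for 15 genes, where 20.1% of all probe sets were, and above all 3 for 11, where 38.5% were. The log2 difference was negative for 22 of the 35, against 39.9% of all probe sets, with a median of -0.08 against 0.12. At an unadjusted p under 0.05, PMT1, PMT2, OST1 and OST3 were lower (4 genes, against 3.46% of all probe sets) and KTR2 was higher (8.86%). The PMT genes had 5 of 6 below the range and 0 above, the transferase complex 5 of 7 below and 1 above (OST2), and GDP-mannose supply 2 of 4 below and 1 above (PMI40). The lipid-linked oligosaccharide step had 5 of 10 above (ALG1, ALG2, ALG5, ALG6 and ALG13) and 3 below, with a median of 0.04, and the Golgi genes had 4 of 8 above and 0 below. Scaling each array to a common median instead moved the median of all probe sets to -0.08 and that of the 35 to -0.29, with 27 negative differences in place of 22; under quantile normalization they were -0.02 and -0.07. Probe sets with a mean signal of 1000 or more had a median of -0.09 over all and -0.20 over the 17 genes in that range, against 0.22 over all probe sets under 300. The steps were not matched for signal, and the part of signal in the counts by step was not tested. The SPT15 ratio was lower on both fks1 arrays than on the untreated and 2 h wild-type arrays, and its part was not tested.

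PMT1 read 1516 on the untreated fks1 array, against 2112, 1830 and 2287 on the untreated wild-type arrays (log2 -0.45, SE 0.17, adjusted p = 0.305). After 2 h it read 1469 in fks1, against 1956, 1918 and 2210 in wild type (log2 -0.46), so both fks1 arrays were below every wild-type array. OST3 read 1732 in untreated fks1, against 2221, 2664 and 2520 in wild type (log2 -0.51, SE 0.18, adjusted p = 0.287). After 2 h OST3 read 1838 in fks1, against 2485, 2778 and 3080 in wild type (log2 -0.59, SE 0.18, adjusted p = 0.231), again below every wild-type array. ALG12 read 476.5 in untreated fks1, against 613.7, 686.9 and 666.6 in wild type (log2 -0.46), and ALG3, a mannosyltransferase of the ER's inner side, read 581.4 in untreated fks1, against 722.7, 719.2 and 1108 in wild type (log2 -0.52, SE 0.26). In ALG3 the wild-type array numbered 3 stood far above the other two, and its probe set has a suffix that marks possible binding to related transcripts. Over both conditions, the 2 fks1 arrays lay above all 9 wild-type arrays for ALG1, OST2, OCH1, KTR2 and KRE2 (5 of 35, against 11.7% of all probe sets) and below all 9 for PMT1, PMT5, ALG3 and OST3 (4 of 35, against 4.41%).

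After 2 h of glucosamine the fks1 array was above all 3 wild-type 2 h arrays for 7 genes (33.6% of all probe sets) and below all 3 for 11 (21.9%), with a median of -0.08 against 0.08 over all probe sets. It had 23 negative differences of 35, against 42.6%. With a mean signal of 1000 or more 12 of 17 genes were negative, against 58.9% of all probe sets in that range. Under 300, 38.4% of all probe sets were negative. The part of signal in these counts was not tested. At an unadjusted p under 0.05, PMT1 and OST3 were lower (3.95% of all probe sets) and OST4, OCH1 and KTR2 higher (8.14%). Both counts are near the shares over all probe sets. The untreated and the 2 h comparison of fks1 with wild type use different arrays, although wild-type arrays of the same number deviated together in these groups. Across the 35 genes their differences had Pearson's r of 0.93 and Spearman's rho of 0.82, with the same sign in 30. Without KTR2 r was 0.81 over 34 genes, and without KTR2 and OCH1 0.74 over 33. These are descriptions across genes, and genes measured on the same arrays are not independent replicates. OST4 departed from the line: its log2 difference was -0.02 untreated and 0.51 after 2 h.

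**Figure D5:**
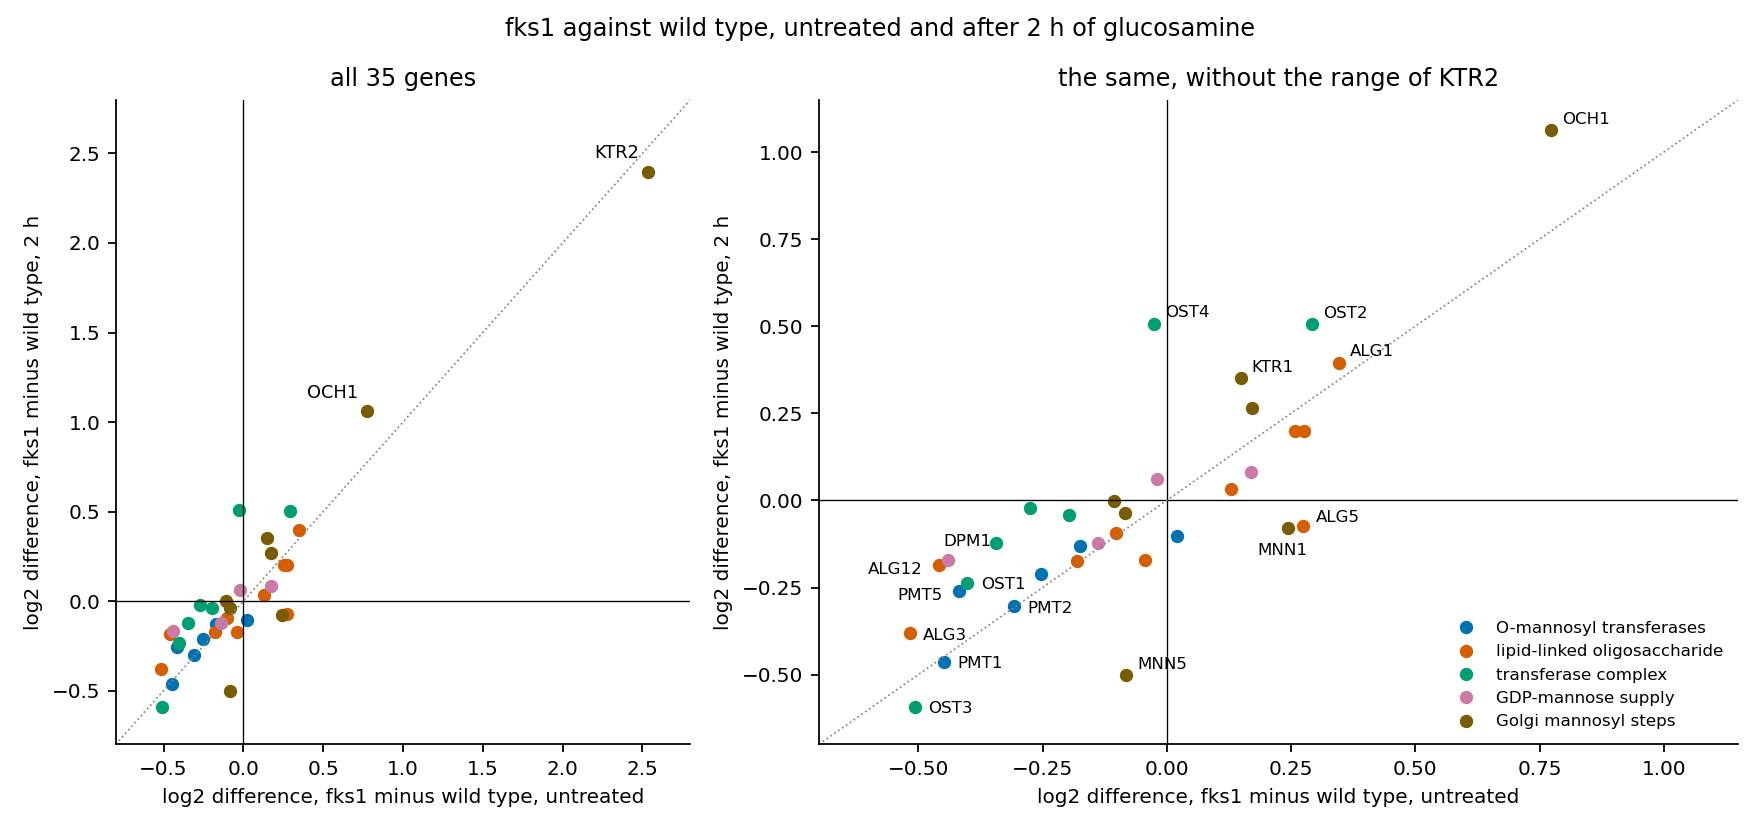
Log2 difference of fks1 minus wild type after 2 h of glucosamine (vertical axis) against that of untreated cells (horizontal axis) for the 35 genes, coloured by step, with a dotted line of equal values. The left panel holds all genes and the right one leaves out the range of KTR2; KTR2 lies at 2.53 and 2.40, and the PMT genes lie at or left of 0.02 and below 0.

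The last comparison asked whether glucosamine acted on these genes in fks1 as in wild type. None of the 35 passed in fks1 after 2 h against fks1 untreated, or in the difference between the 2 h responses of the strains (0.0116% of all probe sets passed in each). None had an unadjusted p under 0.05 in either. At that level 1.37% of all probe sets were lower and 0.453% higher in the fks1 comparison, and 1.5% were lower and 0.836% higher in the difference of responses. Negative differences were found for 12 of the 35 genes in each, against 56% and 52.9% of all probe sets. All 7 subunits of the transferase complex read higher on the 2 h fks1 array than on the untreated one, with a median log2 difference of 0.15, against -0.05 over all probe sets. OST4 had the largest of these, at 3883 after 2 h against 2936 untreated (log2 0.40), and the catalytic STT3 read 1931 against 1717. Over all probe sets with a mean signal of 1000 or more the median was 0.03 and 44.8% were negative. Of the 17 genes in that range 2 were negative, with a median of 0.11. All 4 genes of GDP-mannose supply also read higher, with a median of 0.10, so higher readings were not particular to the complex. KTR2 at 692.3 and 710.1 and PMT1 at 1469 and 1516 were almost level between the 2 h and the untreated fks1 arrays.

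A wider list of 40 other glycosylation genes with a probe set was set beside the 35. It held 9 genes of the lipid-linked chain and dolichol, 2 further transferase subunits (OST5 and OST6), PMT7, 19 further Golgi and sugar nucleotide genes and 9 of glycan trimming and quality control. In continuous against untreated wild type it had 17 positive and 23 negative differences with a median of -0.05, and 0 passed, with 2 higher and 2 lower at an unadjusted p under 0.05. The higher pair was MNT4, a mannosyltransferase of O-linked chains (log2 0.60), and SRT1, a prenyltransferase of dolichol synthesis. SRT1 read 32.8, 41.3 and 46.8 in continuous glucosamine, against 22.2, 21.1 and 17.2 in untreated cells; the untreated signals lay under the background level of 25.5, so no size is given for its difference. The lower pair was DFG10, the polyprenol reductase of dolichol synthesis (log2 -0.41), and KTR3, of the KRE2 family (log2 -0.39). OST5, OST6 and PMT7, which belong to steps of the 35, had -0.14, -0.29 and -0.22 in continuous glucosamine (adjusted p = 0.844, 0.618 and 0.630). At 2 h against untreated the list had a median of -0.01. In untreated fks1 against wild type it had 28 positive and 12 negative differences with a median of 0.15, close to the 0.12 of all probe sets, and 0 passed. Of all probe sets 39.9% were negative there and 0.592% passed. MNT4 had the largest difference in the list there (log2 1.01, SE 0.27, adjusted p = 0.157), and after 2 h it had 1.08 (adjusted p = 0.133).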

How the data were processed

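Per the labels' protocols, cRNA was hybridised to YG-S98 arrays and analysed and normalised by the authors in GeneChip Analysis Suite; the sources used here give neither its version nor its settings. The deposited values are signals on a linear scale, 1 for each of 9335 probe sets and 11 arrays. A floor of 7.7 (10th percentile of the whole table) was applied before log2 transformation. Control probe sets were left out, and the 8616 probe sets that exceeded it on 3 or more wild-type arrays were fitted in limma 3.58.1 (R 4.3.3) with eBayes and a variance trend; Benjamini-Hochberg adjustment ran over all of them. The fit of wild-type comparisons used 9 arrays and that of fks1 comparisons 11. The platform's gene table gave 1 gene for 6504 probe sets. Precision is limited by the number of arrays, and no genome build is named, so no coordinates are given.

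Genes named were those past an adjusted p of 0.05 and, up to 6, those with the largest differences among genes whose arrays did not overlap; for untreated fks1, the 6 largest outside the wild-type range. Other genes are given as signals by step, and some were chosen after their values were seen. The genes and lists were chosen with earlier results of these data known. Replicate numbers paired untreated and 2 h arrays: same-numbered arrays deviated together (correlations 0.36, 0.57 and 0.52). They did not pair the continuous arrays (-0.24 to -0.01 with untreated arrays). Replicate arrays correlated at 0.958 to 0.983. The script was tested on simulated data. Alternatives were other floors, filters and scalings, fits of only the groups compared, the replicate block and leaving out each array.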

Additional observations from a re-analysis of the deposited data

How the results depend on the processing

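The count of the 35 genes past the test stayed at its reported value in 135 of 137 alternatives. The exceptions were leave-one-out fits of continuous against untreated wild type, where the count ran from 0 to 1: DPM1 passed without the continuous array numbered 3 or without the 2 h array numbered 3. Of 449 alternatives for 22 named results, 447 kept their side of the threshold, the same 2 being the exceptions, and 0 turned their direction. These results were picked because their arrays did not overlap, so leaving out an array could not turn a direction. Leaving out an array of a group not compared left the log2 difference unchanged. Most named results were also far from the threshold, so these counts are no measure of how firm the differences are. With the replicate block, 2 h against untreated had 17 probe sets past the test in place of 3, still 0 of the 35 (smallest adjusted p = 0.395). The block on continuous against untreated, where the numbers do not pair the arrays, left 0 of 124 probe sets past the test and 4 of the 35 lower at an unadjusted p under 0.05 in place of 12. The count of all probe sets past the test, the background of these counts, varied more. For continuous against untreated it was 124, but 11 without a variance trend, 16 with no filter on low values, 18 without family probe sets, 56 under median scaling and 2 to 186 in leave-one-out fits. For untreated fks1 against wild type it was 51, but 159 with no filter and 22 to 51 in leave-one-out fits. For fks1 at 2 h against wild type it was 37, but 152 with no filter, 63 with log2 of the signal plus 20 and 18 to 38 in leave-one-out fits. For continuous against 2 h it was 5 and ran from 0 to 9, and for 2 h against untreated it was 3 and ran from 0 to 17. Median scaling moved the medians of the 35 to -0.33 (continuous against 2 h), -0.29 (untreated fks1 against wild type), -0.21 (fks1 at 2 h against wild type), 0.18 (fks1 at 2 h against untreated) and 0.12 (difference of the responses); the median of all probe sets moved with them, by -0.11, -0.20, -0.12, 0.12 and 0.08. At 2 h against untreated it gave 14 negative differences in place of 19, and in continuous against untreated 34 in place of 32. Limits were 3 arrays per wild-type group, 1 fks1 array per condition and a common mean set on every array, which hides any change in total RNA per cell.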

Other observations

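A list of 20 genes covered ER protein folding, translocation and the unfolded protein response, in the compartment where most of the 35 genes act. As a whole, and unmatched for signal, it did not have the negative median seen for the 35 in continuous glucosamine. Its median log2 difference in continuous against untreated wild type was 0.01, with 10 positive and 10 negative and 0 past the test. Of all probe sets 47.6% were negative there and 1.44% passed. SEC61, the main subunit of the translocation channel, had -0.31 and IRE1, the sensor of the unfolded protein response, 0.67 (adjusted p = 0.354 and 0.246, limma). Among other bright genes of the list KAR2 had -0.34 and HAC1 -0.27. The groups overlapped for SEC61, KAR2 and HAC1 but not for IRE1. HAC1 has 5 probe sets, and only the brightest is given. PDI1 was about level, at 4743, 5337 and 5046 in continuous glucosamine, against 4831, 4687 and 5270 in untreated cells. Bright genes of this list were thus partly lower too, and the medians of the list and the 35 are not a like comparison. In untreated fks1 against wild type the list had 16 positive and 4 negative differences with a median of 0.31, against 0.12 over all probe sets, and 0 past the test. Over all probe sets with a mean signal under 300 the median was 0.22, and the list, not matched for signal, holds several genes that dim. In this comparison IRE1 had 1.11, ERO1, the oxidase of disulphide formation, 0.89 and SEC61 -0.63 (limma adjusted p = 0.228, 0.179 and 0.218). KAR2 and PDI1 lay within the untreated wild-type range. KAR2 read 6783 in untreated fks1, against 7454, 5596 and 8061, and PDI1 read 5217, against 4831, 4687 and 5270. A list of 16 cell wall stress genes had 15 positive differences in untreated fks1 with a median of 2.04 and 7 past the test. Over all probe sets 39.9% were negative, the median was 0.12 and 0.592% passed. The list was chosen with earlier results of these data known, so its counts and median are a description and no test. As a statement of size only, KTR2 was the 1 glycosylation gene with a difference of the size of the list's median.

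More than 1 probe set was present for 2 of the genes. The 3 probe sets of ALG3 had log2 differences of -0.19, -0.19 and 0.05 in continuous against untreated wild type, and of -0.52, -0.46 and -0.17 in untreated fks1 against wild type. WBP1, a subunit of the transferase complex, is also an array control; the control probe set had -0.08 in continuous against untreated wild type and the gene's own probe set -0.09.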
